A study of Mus musculus with 2 samples.

Results

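The integrated stress response genes described here are 10 named genes: Nupr1, Atf4, Atf3, Atf5, Ddit3, Ddit4, Trib3, Chac1, Asns and Sesn2. They were found by exact symbol among the 23235 rows of the deposited gene table, and all 10 had 1 row each and were tested by the authors. The set was selected on measured values, those of Nupr1 in the comparison of EtOH with 4OHT, where Nupr1 was strongly lower. The values of the members in that same comparison are therefore given as a description.

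RNA was sequenced from lineage-depleted bone marrow progenitors of C57B6 mice that carried 2 MIGR1 retroviruses, one with HA-tagged Hoxa9-ER and one with Flag-tagged Meis1. Hoxa9-ER is a homeobox transcription factor fused to a hormone-binding domain that holds it in the nucleus only while 4-hydroxytamoxifen (4OHT) is present. Both conditions carried both viruses and had been transformed in IL3 with 100 nM 4OHT. After washing, one was kept for 72 h in 100 nM 4OHT and the other for 72 h in ethanol (EtOH), the solvent. Each condition stood for 2 biological replicates but had 1 value per gene, in FPKM (an abundance scaled for transcript length and library size), so no value below has a replicate error. No cells without Hoxa9-ER were used here, so loss of nuclear Hoxa9-ER and removal of 4OHT itself cannot be told apart. Whether the cultures came from 1 or several mice was not stated in the labels.

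The integrated stress response lets a cell slow protein synthesis and rebuild its amino acid supply when it is starved, infected, short of haem or burdened with unfolded protein. Kinases that sense these states phosphorylate the translation factor eIF2. Most translation then falls, while the Atf4 messenger is translated more, through short upstream reading frames. ATF4 protein, often paired with a C/EBP factor, binds a composite C/EBP-ATF response element and raises genes of the response. Because the main control acts on translation, levels of Atf4 RNA do not show levels of ATF4 protein. Nupr1 encodes a small disordered nuclear protein that many stresses induce in many tissues.

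The composite element stands in the RefSeq promoters of 5 of the 10 members, and these stretches are shown because they mark which members hold it close to their start. Promoters ran from 250 bases before to 50 bases after the gene start (GRCm38.p6), and all 10 members had at least 1. The motif TGATGNAA was searched on both strands. Each window below is read along the gene's own strand, with the match in capitals. TTGCATCA is TGATGCAA read on the other strand and TTACATCA is likewise a match of TGATGNAA on that strand.
Nupr1: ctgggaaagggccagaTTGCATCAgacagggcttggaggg
Atf3: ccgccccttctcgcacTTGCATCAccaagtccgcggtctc
Chac1: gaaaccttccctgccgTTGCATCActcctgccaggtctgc
Trib3: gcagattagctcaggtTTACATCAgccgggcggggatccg
Asns: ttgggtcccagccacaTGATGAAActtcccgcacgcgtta
The windows lie at chr7:126625557-126625596 on the minus strand for Nupr1, chr1:191183420-191183459 on the minus strand for Atf3 and chr2:119351033-119351072 on the plus strand for Chac1. Those of Trib3 and Asns lie at chr2:152344023-152344062 and chr6:7693209-7693248, both on the minus strand.

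Nupr1, Atf3 and Chac1 held the same 8 letters. In both Nupr1 and Atf3 the match began 110 bases before the gene start, in Chac1 193 bases and in Asns 23 bases before it, while that of Trib3 lay after the start. Of 32851 promoters in the RefSeq table, 3.97% held TGATGNAA and 0.895% held its form TGATGCAA, whose matches are a part of the former. Counted by gene, as the members are, the shares of 27025 genes were 4.51% and 1.03%. Atf4, Atf5, Ddit3, Ddit4 and Sesn2 had no match in this window. No member promoter held the cyclic AMP response element TGACGTCA, found in 1.79% of promoters. None held the ER stress element, CCAAT followed after 9 bases by CCACG, found in 0.119%. A match is a run of letters and was not tested for binding.

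The whole Nupr1 promoter is shown because this gene had by far the largest difference of the set. It covers chr7:126625421-126625720 (GRCm38.p6, minus strand), with the element in capitals and the last 50 bases inside the gene.
Nupr1: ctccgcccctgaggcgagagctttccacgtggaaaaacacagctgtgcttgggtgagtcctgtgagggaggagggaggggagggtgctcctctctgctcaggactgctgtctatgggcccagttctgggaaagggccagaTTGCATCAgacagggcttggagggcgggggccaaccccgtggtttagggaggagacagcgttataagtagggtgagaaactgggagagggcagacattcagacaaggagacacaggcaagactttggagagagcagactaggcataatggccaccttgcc

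Nupr1 RNA was 319 FPKM in 4OHT and 39.7 FPKM in EtOH, a level 8.04 times as high in 4OHT. The log2 change, computed here as log2((FPKM EtOH + 1)/(FPKM 4OHT + 1)), was -2.98, and the authors' deposited table lists its q, a p-value adjusted over all tested genes, as 0. In 4OHT Nupr1 stood close to the most abundant member, at 0.841 times the level of Atf4. In EtOH Atf4 was 8.54 times as abundant as Nupr1. Nupr1 made up 32.5% of the summed FPKM of the 10 members in 4OHT and 6.17% in EtOH. Its fall ranked 45 among all 11865 tested genes, and 8 among the 808 tested genes of at least 100 FPKM in 4OHT. The locus lies on chromosome 7 at 133766760 to 133768984 (mm9), and 0.686% of the gene's 50-base words occur in GENCODE M21 transcripts of other genes. In bulk RNA, fewer cells that make a transcript and less of it per cell cannot be told apart.

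The other members stayed close to their 4OHT levels, apart from Atf3. With q up to 0.05 in the authors' deposited table taken as a call, 2 of 10 members, Nupr1 and Atf3, were lower in EtOH and 0 were higher. Over all 11865 tested genes 10.5% were called lower and 12% higher, which adds up to 22.5%. Since the same comparison chose the set, nothing is read from this count. The 8 members that were not called had log2 changes between -0.23 and 0.29, and the authors' deposited table puts their q between 0.316 and 0.768. A q above the threshold does not show that the levels were equal. The median log2 change of the 10 members was -0.16, and -0.16 without Nupr1, against -0.05 for all tested genes, whose quartiles were -0.25 and 0.18. Summed over the 9 members other than Nupr1, the level was 663 FPKM in 4OHT and 603 FPKM in EtOH.

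**Figure D1:**
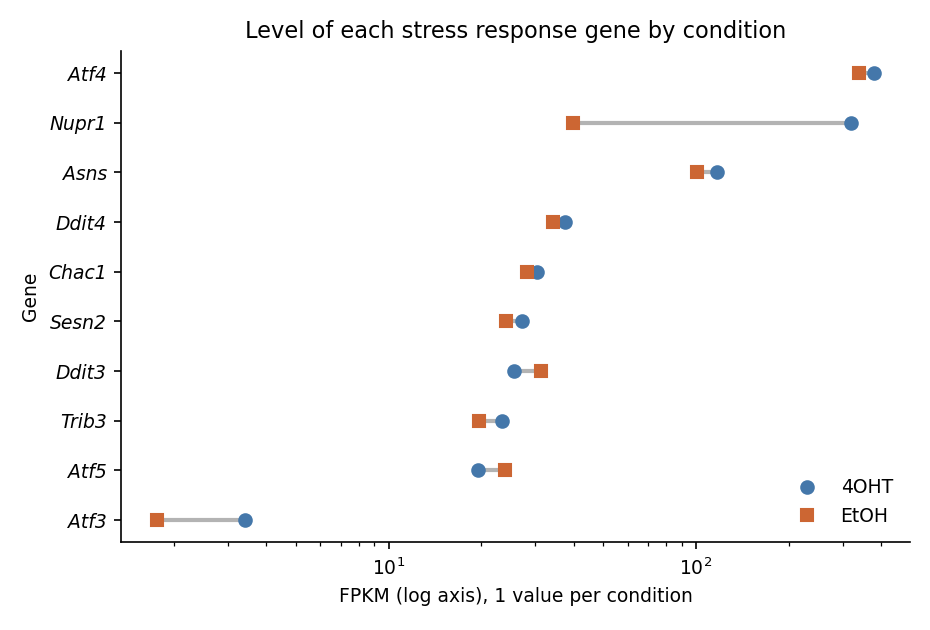
FPKM of each of the 10 members (log axis) in 4OHT (circles) and EtOH (squares), 1 value per condition, ordered by the 4OHT level; grey lines join the values of a gene. Nupr1 drops from 319 to 39.7 FPKM, Atf3 is the lowest member in both conditions, and the markers of the other 8 genes lie close together.

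Among the transcription factors of the response, Atf4 was abundant in both conditions. Atf4, the central activator, was at 379 FPKM in 4OHT and 339 FPKM in EtOH, a log2 change of -0.16, and 98.3% of tested genes had a lower 4OHT level. Atf5, a relative whose messenger is also held under translational control, was at 19.6 FPKM in 4OHT and 23.9 FPKM in EtOH (log2 change 0.27). Ddit3, which encodes the pro-apoptotic factor CHOP, was at 25.6 and 31.4 FPKM (log2 change 0.29). Atf5 and Ddit3 were the members with a higher value in EtOH, and neither was called. Atf3, a stress-induced factor that mostly represses, fell from 3.41 to 1.77 FPKM, a log2 change of -0.67, and the authors' deposited table puts q at 0.0109. Atf3 was the member with the lowest level in each condition. With q held to 0.01 its call is lost, and its log2 change was -0.91 with a pseudocount of 0.1 and -0.31 with one of 5.

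Levels of Atf5 and Ddit3 carry an added uncertainty, because the table gives them loci shared with other rows. Ddit3 and Mars, the methionyl-tRNA synthetase gene, have the same entry on chromosome 10, 126727849 to 126748842 (mm9). Mars fell from 52.6 to 37.5 FPKM (q 0.0107, as the authors' deposited table has it), whereas the value of Ddit3 was higher in EtOH. Atf5 shares its entry on chromosome 7, 52067626 to 52104449 (mm9), with Nup62, Tbc1d17, Il4i1 and the joint row Nup62-il4i1. Nup62, a nuclear pore gene, was at 72.6 and 65.5 FPKM and was not called. The strand used in counting is not given here, and how reads were divided within such a locus was not tested. None of the other 8 members overlapped another row. Shared loci were looked for at the members only, and whether rows of other genes named below share a locus was not examined. The row of Cebpd, for example, runs from 15887379 to 16146926 on chromosome 16 (mm9).

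The effector genes of the set differed little between the conditions. Asns, which encodes asparagine synthetase, was the third most abundant member in 4OHT, at 117 FPKM against 101 FPKM in EtOH (log2 change -0.21). Chac1, which encodes an enzyme that breaks down glutathione, was at 30.4 and 28.3 FPKM (log2 change -0.10). Trib3, a pseudokinase that binds ATF4 and holds it back, was at 23.3 and 19.8 FPKM (log2 change -0.23). These genes hold the composite element, as Nupr1 and Atf3 do, and none of the 3 was called. Ddit4, an inhibitor of the growth kinase mTORC1, was at 37.5 FPKM in 4OHT and 34.2 FPKM in EtOH (log2 change -0.13). Sesn2, a leucine-sensing inhibitor of the same kinase, was at 27.1 and 24.0 FPKM (log2 change -0.17). All 5 had lower values in EtOH, as did 6263 of the 10981 tested genes that reached 1 FPKM in a condition. The share of tested genes with a smaller absolute change ran from 24.8% for Chac1 to 50.9% for Trib3.

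In FPKM, Nupr1 accounted for most of what the set lost. The summed level of the 10 members was 981 FPKM in 4OHT and 642 FPKM in EtOH, and Nupr1 fell by 279 FPKM. The difference, EtOH minus 4OHT, was -40.2 FPKM for Atf4, -16.2 FPKM for Asns and 5.84 FPKM for Ddit3. In relative terms, 98.8% of tested genes had a smaller absolute log2 change than Nupr1, whose fall in this comparison chose the set. For Atf3 that share was 87.4%, for Ddit3 60.1%, for Atf5 58.0% and for Ddit4 31.4%. Atf3 had a low level for a tested gene, with 24.5% of tested genes below it in 4OHT, whereas 94.2% lay below Asns and 66.5% below Atf5.

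On mm9 the members are spread over 7 chromosomes. Atf4 lies on chromosome 15 at 80085614 to 80087971, Atf3 on chromosome 1 at 192994176 to 193007212, and Asns on chromosome 6 at 7625171 to 7643182. Chac1 and Trib3 are both on chromosome 2, at 119176978 to 119180062 and at 152163161 to 152169796. Ddit4 is on chromosome 10, as is Ddit3, at 59412423 to 59414518, and Sesn2 is on chromosome 4 at 132048722 to 132066371. Members that share a chromosome did not share a locus.

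In order of level, Atf4, Nupr1, Asns, Ddit4 and Chac1 led in 4OHT, followed by Sesn2, Ddit3, Trib3, Atf5 and Atf3. In EtOH the order was Atf4, Asns, Nupr1, Ddit4, Ddit3, Chac1, Sesn2, Atf5, Trib3 and Atf3. With 1 value per condition there is no replicate spread against which neighbours in these orders could be set.

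**Figure D2:**
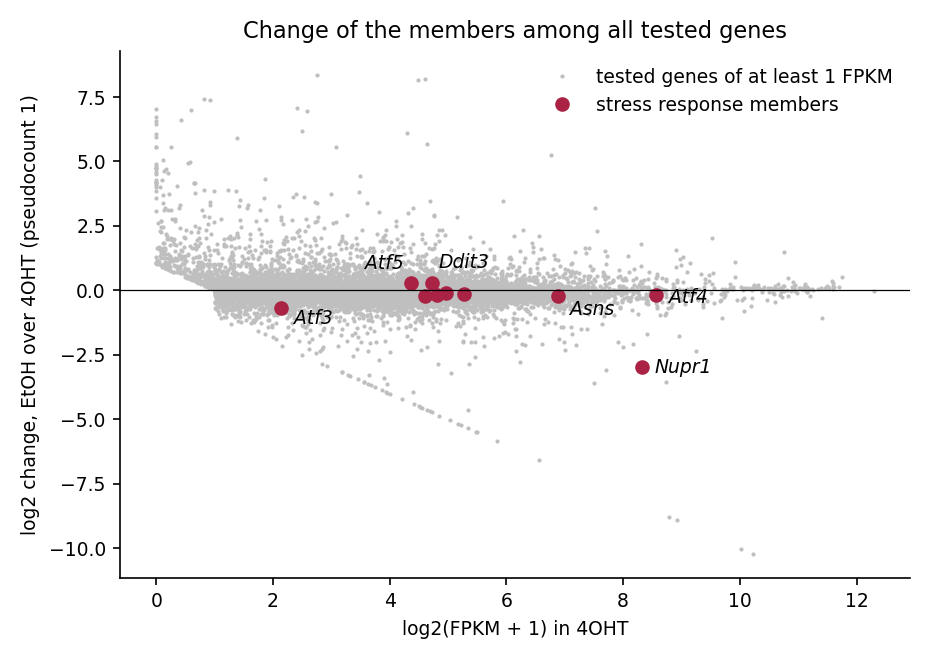
Log2 change of EtOH over 4OHT (pseudocount 1) against log2(FPKM + 1) in 4OHT for tested genes that reached 1 FPKM in a condition (grey) and the 10 members (red). Nupr1, at a log2 change of -2.98, lies apart from the other members, which sit within the band of most genes; Atf3 is at -0.67 at a low level.

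Scaling does not alter which members lie above or below 0. All FPKM added up to 544802 for 4OHT and 591496 for EtOH, and scaling EtOH to the 4OHT sum moves each gene's ratio by -0.12 on the log2 scale. The members' median then becomes -0.28, with Nupr1 at -3.09, Atf5 at 0.16 and Ddit3 at 0.17. Read totals are not given by FPKM. Among loci of 800 to 1300 bases, FPKM times locus length fell most often between 20 and 25 in 4OHT (20 of 56 rows under 200) and between 25 and 30 in EtOH (9 of 55). Were that step a single fragment, a 1 kb transcript at 1 FPKM would stand for 40 to 50 fragments in 4OHT and 33.3 to 40 in EtOH. The depth is otherwise unknown.

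Levels of cell type markers moved with the same comparison, and the cells themselves were not counted here. Of 10 late neutrophil markers all 9 of at least 1 FPKM rose, and the list's summed level went from 131 to 16303 FPKM. Of 7 eosinophil markers all 6 of at least 1 FPKM rose, and the list's sum went from 134 to 4693 FPKM. Il5ra, below that level at 0.478 and 0.448 FPKM, was not called. Basophil and mast cell markers (9 of 9 rose) went from 1306 to 5128 FPKM in sum. Monocyte and macrophage markers summed to 301 and 349 FPKM, with 5 of 7 risen and 1 fallen. The one that fell was Emr1, from 202 to 102 FPKM, and among those that rose Lyz2 went from 40.5 to 174 FPKM. Ly86, at 0.0239 FPKM in 4OHT and 0 in EtOH, was not tested. Of the 10 progenitor markers, which stand for the labelled cell type, 6 fell and 2 rose, with sums of 604 and 413 FPKM and none at 0. Of 9 lymphoid markers Cd3e, Cd4, Ms4a1 and Rag1 were at 0 in both conditions, Il7r rose, and the list summed to 0.112 and 1.80 FPKM. The 6 erythroid and megakaryocyte markers found summed to 103 and 88.7 FPKM. Of the 4 that reached 1 FPKM 2 fell and 0 rose, while below that level Klf1 rose from 0.310 to 0.935 FPKM. Gp1bb, at 0 in 4OHT and 0.104 FPKM in EtOH, was not tested. The markers named here fall outside the rule for named genes and were picked after their values were seen. The part of these shifts in the levels of Nupr1 and Atf3 was not tested.

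The nearest relatives of the members were mostly low, and those called went both ways. Jdp2, which encodes a repressor closely related to ATF3, rose from 23.7 to 44.1 FPKM (log2 change 0.87), opposite to Atf3. Trib1, a relative of Trib3 that targets C/EBP alpha for breakdown, rose from 4.395 to 7.97 FPKM (0.73). Sesn3 fell from 1.12 to 0.342 FPKM (-0.66). Sesn1, at 15.1 and 16.9 FPKM, and Chac2, at 3.88 and 5.02 FPKM, were not called. Below 1 FPKM in both conditions were Trib2, Ddit4l and the Nupr1 relative Nupr1l, which the table names 4930579G22Rik and lists at 0.664 and 0.710 FPKM.

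Upstream of ATF4, no sensing kinase was called, while some parts of the eIF2 machinery fell. Of 18 genes for eIF2 kinases, eIF2, its exchange factor eIF2B and its phosphatase, 4 fell, 1 rose and 13 were not called, with a median log2 change of -0.07. Over all tested genes that reached 1 FPKM in a condition the background was 10.6% lower and 12% higher, with a median of -0.06. Eif2b3, a subunit of eIF2B, fell from 15.9 to 10.4 FPKM (-0.56). Impact, whose product restrains the amino acid sensor GCN2, fell from 8.36 to 5.85 FPKM (-0.45). Nck1, an adaptor that helps to dephosphorylate eIF2, rose from 15.2 to 22.3 FPKM (0.52). With q held to 0.01 none of these 5 calls remained. The kinase genes, Eif2ak1 (HRI), Eif2ak2 (PKR), Eif2ak3 (PERK) and Eif2ak4 (GCN2), were not called and had log2 changes of 0.09, 0.00, 0.02 and 0.24. They are given outside the rule for named genes, after their values were seen.

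Other genes named as ATF, CREB or C/EBP factors or related to them, several of which can pair or compete with ATF4, went both ways. Of 18 measured, 5 rose, 3 fell and 10 were not called, with a median of 0.19. Those not called include a gene for which the authors' test failed. Cebpd rose from 9.01 to 22.9 FPKM (1.25), and Cebpe, a factor of granulocyte maturation, from 93.6 to 218 FPKM (1.21). Cebpg, which encodes a common partner of ATF4, fell from 19.0 to 14.1 FPKM (-0.41), and Cebpz from 29.6 to 21.3 FPKM (-0.46). With q held to 0.01 the 5 rises remained called and the 3 falls did not. Late neutrophil markers rose in the same comparison as these C/EBP genes, and their part was not tested.

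Genes of amino acid and one-carbon synthesis that ATF4 is known to raise mostly had lower values, in 12 of 13 measured. Of these 13, 6 fell, 1 rose and 6 were not called, and the median log2 change was -0.38. Lower values were also held by 6263 of the 10981 tested genes that reached 1 FPKM in a condition. Of those 10981 genes, 10.6% were called lower and 12% higher, with a median of -0.06. Aldh1l2, the mitochondrial formyltetrahydrofolate dehydrogenase, fell from 8.06 to 2.19 FPKM (-1.51). Gpt2, the mitochondrial alanine aminotransferase, fell from 23.5 to 11.6 FPKM (-0.96). Cth, which makes cysteine from cystathionine, rose from 6.77 to 16.1 FPKM (1.13). With a ratio of at least 1.5 also asked for, 4 of the 6 falls remained. Asns, the member with the same kind of role, was not called. Among 10 amino acid transporters 2 fell, 1 rose and 7 were not called, with a median of -0.10. Slc1a4 and Slc1a5, carriers of neutral amino acids, fell from 6.99 to 3.00 FPKM, 2.33 times as high in 4OHT, and from 158 to 112 FPKM (log2 change -0.49). Slc7a11, the cystine importer, rose from 4.99 to 10.1 FPKM (0.89).

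Genes of the cytosolic aminoacyl-tRNA synthetases, which load amino acids onto tRNA and of which several respond to ATF4, had lower values in 19 of 20 measured. Of these 20, 8 fell, 0 rose and 12 were not called, with a median of -0.33. Lower values were also held by 6263 of the 10981 tested genes that reached 1 FPKM in a condition. Of those 10981 genes, 10.6% were called lower and 12% higher, with a median of -0.06. Farsb fell from 45.8 to 29.4 FPKM (-0.63) and Iars from 56.4 to 37.7 FPKM (-0.57). The count of falls was 3 with q held to 0.01 and 1 when a ratio of at least 1.5 was also asked for.

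Further effectors of ATF4 or CHOP went both ways, with 3 risen, 3 fallen and 10 not called of 16 measured and a median of 0.04. Scaled to the 4OHT sum, that median turned to -0.07. Gdf15, a secreted stress signal, fell from 3.04 to 1.10 FPKM (-0.95), and the lipoprotein receptor gene Vldlr from 23.6 to 13.7 FPKM (-0.74). Bcl2l11, which encodes the pro-apoptotic protein Bim, rose from 2.39 to 7.27 FPKM (1.29), and the haem oxygenase gene Hmox1 from 28.2 to 67.7 FPKM (1.23).

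The other arms of the response to unfolded protein also contained falls and no rises. Of 24 genes of the ATF6 and XBP1 arms 7 fell, 0 rose and 17 were not called, with a median of -0.26. Over all tested genes that reached 1 FPKM in a condition, 10.6% were called lower and 12% higher. Dnajc10, a disulfide reductase that helps clear misfolded protein, fell from 254 to 55.3 FPKM (-2.18), and Ern1, which encodes the stress sensor IRE1 alpha, from 26.6 to 11.9 FPKM (-1.10). With a ratio of at least 1.5 asked for as well, 3 of the 7 remained. Of 9 mitochondrial stress genes 3 fell, 0 rose and 6 were not called, with a median of -0.40. The chaperone genes Hspa9 and Hspd1 fell from 195 to 126 FPKM (-0.63) and from 208 to 131 FPKM (-0.67). For Hspd1, 39.7% of its 50-base words occur in transcripts of other genes, so its own level is uncertain.

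Beside Ddit4 and Sesn2, other regulators of mTORC1 were mostly not called. Of 16 measured, 1 fell, 1 rose and 14 were not called, with a median of -0.11. Deptor, an inhibitor that binds the kinase, fell from 6.25 to 0.572 FPKM (-2.20). Mlst8, a subunit, rose from 6.99 to 12.3 FPKM (0.74). The known partners of the Nupr1 protein, Msl1, Ep300 and Ptma, were not called, with log2 changes of 0.27, 0.28 and -0.22, and are named outside the rule as the whole of their list. Counted once each, 150 pathway genes outside the set had 38 falls (25.3%), 14 rises (9.33%) and 98 without a call, and a median of -0.20. Over all tested genes that reached 1 FPKM in a condition, 10.6% were called lower and 12% higher, with a median of -0.06. The lists were chosen with earlier results of these data known, and the difference was not tested.

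**Figure D3:**
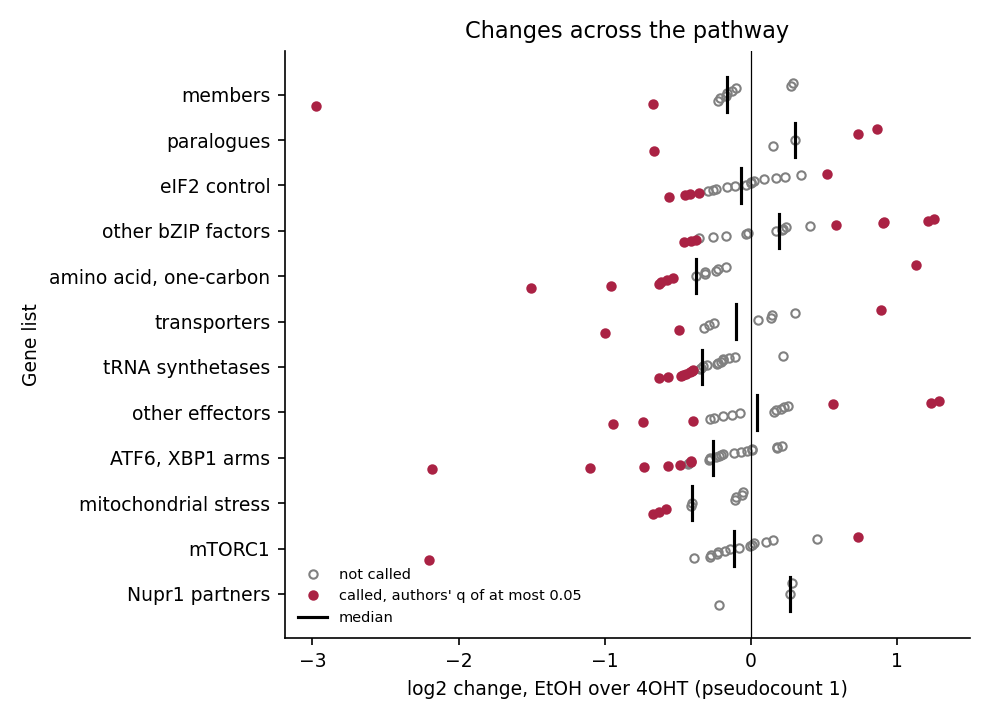
Log2 change of EtOH over 4OHT (pseudocount 1) for the genes of each list that reached 1 FPKM in a condition; filled red points are called (q up to 0.05, authors' deposited table), open points are not, and black bars are list medians. Medians run from -0.40 for mitochondrial stress genes to 0.30 for the paralogues, and Nupr1 is the lowest point of the lists shown.

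Over all expressed genes, genes with the element in the promoter were called in both directions. Of 66 tested genes of at least 1 FPKM whose promoter holds TGATGCAA, 10 were called lower (15.2%) and 9 higher (13.6%), with a median log2 change of -0.08. With TGATGNAA, 34 of 232 were called lower (14.7%) and 25 higher (10.8%), and the median was -0.03. Members that hold each form are counted here, so Nupr1, whose values chose the set, and Atf3 are among the genes called lower. These shares stand beside the 10.6% and 12% of all such genes, were computed after the members' values were known, and were not tested.

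The gene next to Nupr1 was lower as well. Ccdc101, which RefSeq names Sgf29 and which encodes a subunit of the SAGA chromatin complex, lies 23838 bases from the Nupr1 locus, at 133792823 to 133816293 on chromosome 7 (mm9). It fell from 57.6 to 15.97 FPKM, a log2 change of -1.79, and 0% of its 50-base words were found in transcripts of other genes. Slx1b, the third row on that side, fell from 5.66 to 3.89 FPKM (-0.45; q 0.0438, as the authors' deposited table has it), and Sult1a1 between them was not tested, at 0.341 and 0.193 FPKM. On the other side Il27 rose from 0.301 to 1.32 FPKM (0.83), while Apobr and Cln3 were not called, with log2 changes of 0.33 and 0.18. Within 500 kb on either side, 34 other genes of at least 1 FPKM were tested, of which 3 were called lower and 6 higher, with a median of 0.07. Without Ccdc101 the lowest log2 change among them was -0.45. Over all tested genes that reached 1 FPKM in a condition, 10.6% were called lower and 12% higher, with a median of -0.06.

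**Figure D4:**
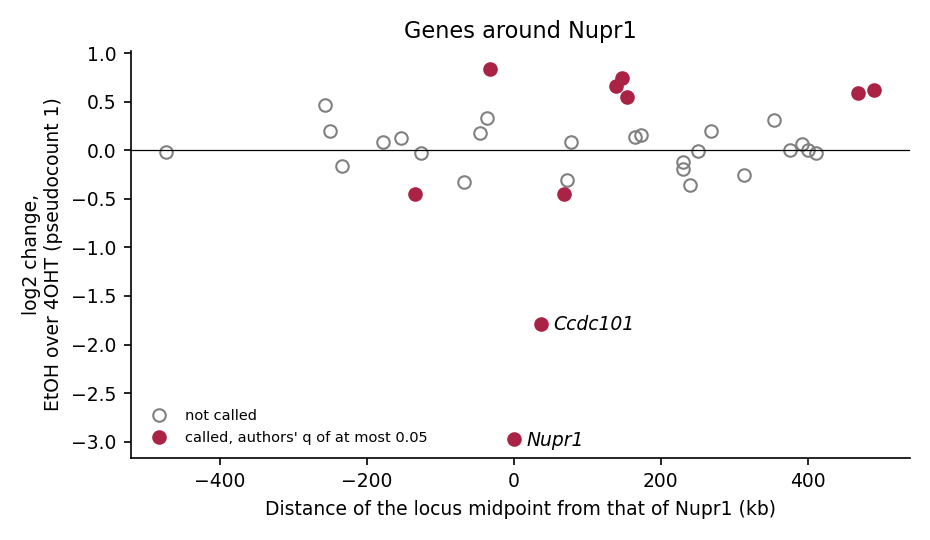
Log2 change of EtOH over 4OHT (pseudocount 1) for Nupr1 and the 34 other tested genes of at least 1 FPKM within 500 kb of it, by distance between locus midpoints in kb; filled red points are called in the authors' deposited table. Nupr1 (-2.98) and Ccdc101 (-1.79) lie below all other genes of the window, which stay at or above -0.45.

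The rows most like Nupr1 in their 2 levels were Mir3091, Dnajc10, Snord95, Snord4a and Crhbp, at distances of 0.45 to 0.94 in the plane of the 2 log2 levels. Mir3091, Snord95 and Snord4a are rows of short RNAs, and their differences were not called, their q lying between 0.948 and 0.992 by the authors' deposited table. All of the 50-base words of Snord95 (100%) occur in transcripts of other genes, so its level cannot be taken as its own. For Mir3091 and Snord4a that share was 0%, but it rests on only 27 and 22 words, so their levels are uncertain too. Dnajc10 was also on the list of the ATF6 and XBP1 arms, and Crhbp, which encodes a binding protein of corticotropin-releasing hormone, fell from 208 to 23.8 FPKM (-3.08). Among called genes alone, a choice made after the values were seen, the next nearest were the surface antigen gene Cd48 (166 and 57.8 FPKM), the adhesion receptor gene Gpr56 (154 and 54.5 FPKM) and the mucin gene Muc13 (145 and 33.04 FPKM). The likeness rests on 2 conditions. No other member of the set was among these rows.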

How the data were processed

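Cuffdiff 2.0.2, Bowtie2 2.0.0.7, CASAVA 1.8.2 and the build mm9 are named in the submitters' processing notes. The strand and scaling settings were not given in the sources used here. Per the file headers, the authors deposited 1 FPKM value per gene and condition, and a p-value, a q-value and a linear ratio for EtOH against 4OHT. Adjusting the p-values over the 11865 tested rows by Benjamini-Hochberg gave the deposited q-values to within 1.7e-06. Calls used q of at most 0.05, and no test was computed here across 2 single values. Whether the 2 biological replicates of a condition entered Cuffdiff as separate libraries is not given. It is therefore unknown whether the q-values reflect replicate spread.

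Log2 changes used a pseudocount of 1, and list counts took genes that reached 1 FPKM in a condition (Python 3.11.15, pandas 2.3.3). "Rose" and "fell" mean called, and "measured" in a list count means at least 1 FPKM in a condition. The members and lists were chosen with earlier results of these data known. The genes named were the members, their paralogues, up to 2 called genes per direction and list, the 5 tested rows nearest to Nupr1, and overlapping or flanking rows. Others are marked in the text as named outside this rule. Sequences and current symbols came from RefSeq (GRCm38.p6), and shared words from GENCODE M21, where 60 of 61 genes were found. Starts of loci count from 1. The log2 change, the Benjamini-Hochberg adjustment, the direction of calls at set q-values and the search for nearest rows were also run on simulated data. The motif search, the shared words and the list counts were not. Alternatives were other pseudocounts, scalings, filters and call rules.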

Additional observations from a re-analysis of the deposited data

How the results depend on the processing

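No paired analysis was possible because each condition has 1 value per gene, and for the same reason no replicate could be left out. At q of at most 0.01, 1 member (Nupr1) was called lower. Scaling EtOH to the 4OHT sum moved the members' median to -0.28, and the median of the other effectors of ATF4 or CHOP turned to -0.074 with it and to -0.036 without the filter on low values. At q of at most 0.01 the falls numbered 3 for synthetases, 0 for eIF2 control and 0 for other ATF, CREB and C/EBP factors, and rises in eIF2 control numbered 0. With q of at most 0.05 and a ratio of at least 1.5, falls numbered 1 for synthetases, 3 for the ATF6 and XBP1 arms, 4 for amino acid and one-carbon synthesis, 2 for other effectors, 1 for transporters, 1 for eIF2 control and 0 for other ATF, CREB and C/EBP factors, and rises numbered 0 in eIF2 control and 2 in other effectors. These call rules are stricter by construction. All 10 members kept the sign of their log2 change under both pseudocounts and both scalings. The 5 rows nearest to Nupr1 were the same with a pseudocount of 0.1, and 2 of them were kept among called genes alone. Depth behind each value is unknown, which limits the low genes most, Atf3 among them.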
